A study of Mus musculus with 768 samples.

Results

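Young Pax7-high muscle stem cells are described here by themselves, gene by gene, from the 253 single cells, of 377 cells in the count table, whose column name carries the mark of a young mouse. The 4 young mice gave 60 cells (Y4), 44 cells (Y5), 74 cells (Y7) and 75 cells (Y8) after the filters of the study. They were male *Tg:Pax7-nGFP* mice of a C57BL/6;DBA2 F1/JRj background, labelled as 2 months old, in which regulatory sequences of *Pax7* drive a nuclear green fluorescent protein. Cells were released from the tibialis anterior, a muscle of the lower leg, by collagenase and trypsin, frozen, thawed and sorted for the brightest 10% of nGFP (Pax7Hi). One cell was sorted into each well, and polyadenylated RNA was copied into full-length cDNA and sequenced beside the methylome of the same cell. All the mice thus share the transgene, the digestion, the freezing and the sort.

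Muscle stem cells lie between the muscle fibre and its basal lamina and stay out of the cell cycle in healthy adult muscle. The paired-box factor Pax7 marks them and sustains them, Myf5 is a determination factor that many of them already transcribe, and Vcam1, Cdh15 (M-cadherin) and the calcitonin receptor Calcr are surface proteins of the quiescent state. Cells with the highest Pax7 are regarded as the more deeply quiescent ones. When muscle is cut and digested, these cells begin to respond within the time of the procedure, and immediate early genes such as *Fos*, *Jun* and *Egr1* are known to be transcribed at that stage.

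Of the 5 identity markers, 4 were read in most cells, and *Calcr* in fewer. *Pax7* (chr4:139737062-139833528) had reads in 95% of the cells of Y4, 90.9% of Y5, 95.9% of Y7 and 84% of Y8, a mean of 91.5% ± 5.43 (SD, n = 4 mice). *Myf5* had reads in 77.9% ± 2.71 of cells, *Vcam1* in 78.9% ± 13.2, *Cdh15* in 62.7% ± 8.82 and *Calcr* in 39.7% ± 7.65. In 251 of the 253 cells at least 1 of the 5 markers was read, and in 138 cells at least 4 were. *Vcam1* was the most uneven of them between mice, with reads in 60% of the cells of Y4 and in 80% to 89.2% of the cells of the other mice.

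Markers of other cells were scarce. The myogenic differentiation factor *Myog* and the fusion factor *Mymk* (*Tmem8c* in the table) had reads in 0 of 253 cells, which allows a share of up to 1.19%, and none of the 12 genes of committed muscle was read in more than 6 cells. Of the endothelial genes, *Cdh5*, *Kdr*, *Emcn* and *Cldn5* had none and *Tek* was read in 12 cells. *Pdgfra*, *Dcn* and *Lum*, which define fibro-adipogenic cells, and the glial genes *Sox10* and *S100b* also had none. Of the immune genes, *Ptprc* was read in 1 cell and *Csf1r* in 18. *Dpt*, on the fibro-adipogenic list, was read in 212 of the 253 cells, and *Notch3*, on the mural list, in 184, while the other genes of those lists were read in at most 13 cells. Of the genes of dividing cells, *Ccna2* was read in 15 cells, *Mki67* and *Top2a* in 5 each and *Ccnb1* in 0.

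The reads assigned to genes numbered 102044 to 626142 per cell (median 276146), and 1016 to 3411 genes had a read in a cell. The median number of genes in a cell was 1914 (Y4), 2172 (Y5), 2441 (Y7) and 1823 (Y8). Y7 was sequenced on lane 2 and the other 3 mice on lane 3, so lane and mouse cannot be told apart for Y7. Over the cells of a mouse, 11557 to 13197 of the 25952 genes in the table were seen at least once. Reads carry no molecular identifier, and limits given for a count of 0 cover counting error only.

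The most abundant transcripts came from genes of different roles, among them redox defence and translation. Levels between genes are compared as TPM, which divides reads by the length of all exons of a gene and scales each cell to the same total, averaged over the cells of a mouse. *Gpx3* (chr11:54902453-54910377), a secreted glutathione peroxidase, stood highest with 24197 TPM (Y4), 19529 TPM (Y5), 22641 TPM (Y7) and 26069 TPM (Y8), a mean of 23109 ± 2768 (SD, n = 4 mice). The elongation factor gene *Eef1a1* followed with 14538 ± 4300 TPM. *Gm20721*, at 22392 ± 4424 TPM, shares exons with *Gnas*, the gene of the stimulatory G protein subunit, so these reads cannot be assigned to either of them with certainty. All these levels were above those of *Pax7*, at 433 ± 169 TPM, and of *Myf5*, at 902 ± 370 TPM.

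Further down this list the spread between mice was wide enough that the order is not fixed. *Asb5*, a subunit of ubiquitin ligases that is known from muscle stem cells, had 3330 TPM in Y4 and 10906 to 15597 TPM in the other mice, with some of its exons shared with *Spcs3*. The chemokine gene *Cxcl1* was at 5213 TPM (Y4), 13716 TPM (Y5), 4481 TPM (Y7) and 14484 TPM (Y8). The surface proteoglycan gene *Sdc4*, whose product carries growth factors to muscle stem cells, was at 8676 ± 3144 TPM. Cytoplasmic actin (*Actb*, 7470 ± 1286 TPM), ubiquitin (*Ubb*, 6683 ± 2090) and the metallothioneins *Mt2* (8713 ± 5261) and *Mt1* (4600 ± 2159) were within 1 SD of their neighbours in rank. Of the 20 genes 4 encode ribosomal proteins (*Rps4x*, *Rplp1*, *Rpl4* and *Rplp0*), from 4513 to 6252 TPM, and *Hspb1*, *Hsp90ab1*, *Fos*, *B2m*, *Malat1* and *Nfkbia* completed the list. The 50 genes with most reads took 17.7% ± 0.530 of the reads of a cell, and the 500 with most reads 47.1% ± 1.45.

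**Figure D1:**
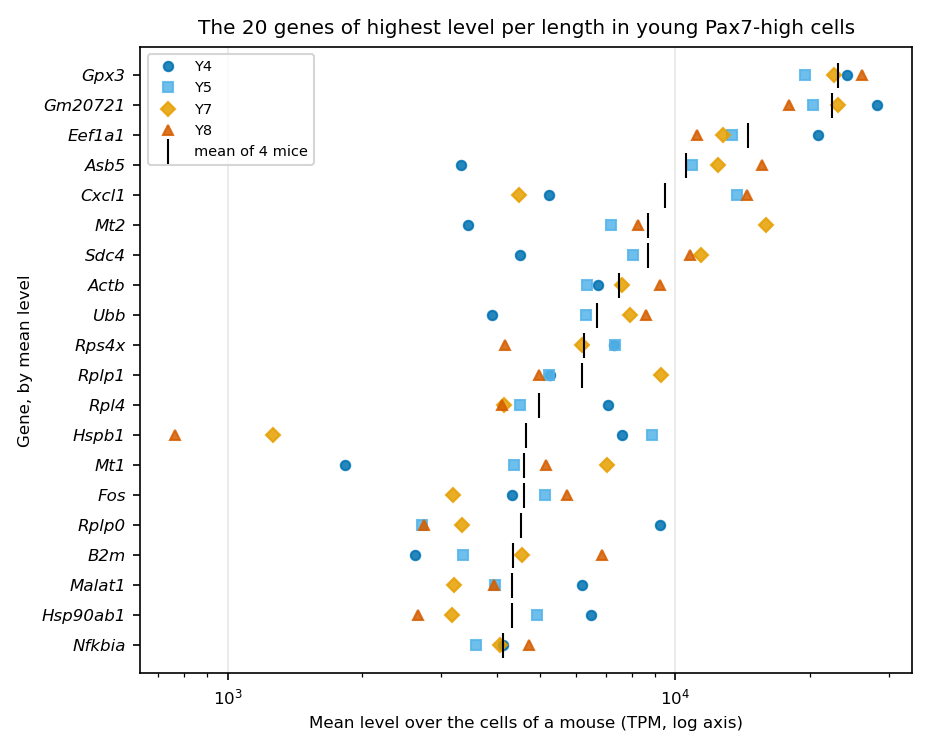
Mean TPM of the 20 highest genes in each young mouse (coloured symbols) and over the 4 mice (black bar), on a log axis. Gpx3 lies between 19529 and 26069 TPM in all the mice, whereas Asb5 is lowest in Y4 with 3330 TPM and Hspb1 is low in Y7 and Y8, at 1263 and 765 TPM.

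Detection was patchy apart from a core of genes. Of the genes in the table, 19 had a read in each of the 253 cells, among them *Gpx3*, *Eef1a1*, *Gnas*, *Malat1*, *Hspa8*, *Ubb*, *Eif1* and 8 ribosomal protein genes. In at least 95% of the cells of each mouse there were 71 such genes, 34 of them ribosomal. A further drop of the requirement, to 50% of the cells of each mouse, gave 579 genes. Levels of 1 gene across cells are given as RPM, reads scaled to the same total in each cell. Of 1210 genes averaging 100 RPM or more in each mouse, 832 (68.8%) were read in only 20% to 80% of the cells of each mouse. Being read in some cells and not in others was thus usual for genes of this level. The highest of the 832 were *Fos* (60.5% of cells), *Egr1* (69.9%), *Sat1* (71.7%), *Thbs1* (53.3%), *Fam132b* (59.9%), *Hspb1* (55.4%), *Nr4a1* (55.5%), *Dusp1* (70.2%), *Gem* (67.1%) and *Osmr* (69.4%). In the cells that had a *Fos* read, its level was 5418 RPM, the mean of the 4 mice. Thinning each cell to 100000 reads left *Fos* with reads in 58.2% of cells. Whether a cell without a read lacked the transcript or lost it before sequencing was not tested.

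The steadiness of a gene from cell to cell was measured in each mouse as its distance to the median, the log10 of its squared coefficient of variation (CV) minus the median of 100 genes of like mean level, for the 5963 genes that averaged 10 RPM or more in each of the 4 mice. A gene was called constant where the distance was in the lowest 10% in all 4 mice, and variable where it was in the highest 10% in all 4. There were 265 constant genes (4.44%) and 32 variable genes (0.537%), counts that rose to between 301 and 324 and between 50 and 69 where any 1 mouse was left out and a gene had to pass in 3. The distances of a gene resembled each other between mice, with a Spearman rho across genes of 0.404 to 0.460 between pairs of mice; genes are not independent replicates. Just inside the limit of the variable genes lay *Zfp35* with a mean distance of 0.36, and just outside it *Nctc1* with 0.33.

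Ribosomal protein genes made up much of the constant set. Of 79 tested, 57 were called constant, beside 4.44% of all genes tested. None was called variable, the usual outcome with 0.537% of all genes called so. Their median distance was −0.78 (Y4), −0.52 (Y5), −0.49 (Y7) and −0.55 (Y8), against −0.02 to −0.03 over all genes tested. *Rps21* had a distance of −1.07 ± 0.26 (SD, n = 4 mice), *Rpl38* −1.01 ± 0.25 and *Rps29* −0.99 ± 0.21. The CV of *Rps27* across cells was 0.474 in its steadiest mouse and 0.624 in its least steady one. Their summed reads took 4.37% of the reads of the median cell of Y4 and 4.35%, 5.6% and 3.75% of that of Y5, Y7 and Y8.

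Among the remaining named coding genes, low distances were found for *Ppia*, the prolyl isomerase cyclophilin A (−0.88 ± 0.22). *Sumo2*, a small protein modifier, had −0.88 ± 0.09. *Tmsb10*, which binds actin monomers, had −0.82 ± 0.17, and *Snrpg*, a core splicing protein, −0.80 ± 0.22. A low distance is relative to genes of like mean level. As means over mice, *Sumo2* was read in 51.2% of cells and *Snrpg* in 64.3%, each with a CV of 1.54. *Ppia* and *Tmsb10* were read in 95.6% and 95.1%, with a CV of 0.69 and 0.84. Exact stretches of bases were shared with 46 other genes by *Ppia*, with 14 by *Sumo2* and with 4 each by *Tmsb10* and *Snrpg*. The part of this sharing was not tested. Of 22 nuclear genes of oxidative phosphorylation 6 were constant (*Ndufa4*, *Uqcrh*, *Cox6a1*, *Cox6c*, *Cox8a* and *Atp5j*), and of 17 translation factors 2, *Eef1a1* and *Tpt1*, both beside 4.44% of all genes tested. The highest gene, *Gpx3*, was also a constant one, with a CV of 0.389 to 0.454 between mice.

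The 10 lowest distances of all belonged to pseudogenes and unnamed gene models, led by *Gm5805* (−1.67 ± 0.11), which shares an exact stretch of 50 bases with *Rps14*. The others were *Gm2000*, *Rps2-ps6*, *Gm8841*, *Rps26-ps1*, *Gm11808*, *CT025645.1*, *Rpl31-ps8*, *Gm6807* and *Gm10159*, with mean distances between −1.59 and −1.45. Such genes formed 34.3% of the constant set and 5.90% of the genes tested, and 222 constant genes with a known exon length had a median of 1523 bases, against 4748 bases over all genes tested. *Wdr89* (−1.23 ± 0.44) and *Wdr38* (−1.21 ± 0.08), the lowest of the named coding genes, share such stretches with *Rplp2* and *Rpl35*, and *Wdr38* shares exons with *Rpl35*. The part that shared reads and short transcripts have in these calls was not tested. Without pseudogenes and unnamed models, a choice made after seeing the data, 199 constant genes were called.

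Genes often used as references did not behave alike in these cells. *Ppia*, *Rplp0* and *Eef1a1* were constant, but the means of the last 2 differed between mice, with 9245 TPM of *Rplp0* in Y4 against 2713 to 3344 TPM in the others and 20837 TPM of *Eef1a1* in Y4 against 11174 to 13354 TPM. *Ywhaz* was even between mice, with 1266, 1253, 1272 and 1182 RPM in Y4, Y5, Y7 and Y8. *Hprt*, at 125 ± 60.2 RPM, was read in 30.3% of cells, *Tbp* in 15.9% and *Gusb* in 6.39%. *Gapdh*, a glycolytic enzyme gene with many near-identical pseudogenes, was at 9.70 ± 6.02 RPM and read in 8.40% of cells, a value that is uncertain for that reason.

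Ribosomal protein messages are known for a start in a run of pyrimidines, the 5′ terminal oligopyrimidine tract, and 5 starts of ribosomal protein genes are shown for it, of which all but *Rps18* were called constant. The stretches run from 15 bases before the RefSeq start (GRCm38.p6) to 15 bases after it, and capitals mark runs of at least 5 pyrimidines.
Rps27 (chr3:90213634-90213663, minus strand): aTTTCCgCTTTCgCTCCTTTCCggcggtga
Rps24 (chr14:24490663-24490692, plus strand): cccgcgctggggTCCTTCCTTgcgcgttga
Rps18 (chr17:33955651-33955680, minus strand): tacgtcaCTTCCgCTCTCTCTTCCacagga
Rpl35 (chr2:39005117-39005146, minus strand): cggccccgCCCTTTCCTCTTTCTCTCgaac
Rpl38 (chr11:114668565-114668594, plus strand): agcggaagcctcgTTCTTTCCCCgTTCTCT

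A start in 5 pyrimidines was found for 16 of the 62 ribosomal protein genes with a listed promoter (25.8%), for 244 of 4330 tested genes (5.64%) and for 5.28% of all 27025 genes with one. It was found for 0 of the 22 variable genes with a listed promoter. An annotated start can lie some bases from the one in use, so that no match says only that these letters are not in this window.

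At the other end, 21 of the 32 variable genes were read in at least 10% of the cells of each mouse, and they were led by *Fos*. *Fos* (chr12, start 85473890), which with Jun proteins forms the AP-1 transcription factor, had a mean level of 2843 RPM (Y4), 3655 RPM (Y5), 2315 RPM (Y7) and 4062 RPM (Y8), and its distance was 0.53, 0.80, 0.86 and 1.10. Single cells ranged far around these means. The median cell held 240 RPM as the mean of 4 mice, the 90th percentile of a mouse lay between 7638 and 11253 RPM, and the highest cell reached 16.15 on the scale of log2(RPM + 1). The zinc finger factor *Egr1* had a mean distance of 0.61 ± 0.12 at 2703 ± 791 RPM, and *Junb*, an AP-1 member, 0.46 ± 0.18 at 1767 ± 93.9 RPM. *Zfp36*, whose product destabilises messages with AU-rich tails, had 0.45 ± 0.08, the nuclear receptor *Nr4a1* 0.44 ± 0.20, the stress factor *Atf3* 0.40 ± 0.06 and the antiproliferative gene *Btg2* 0.33 ± 0.08.

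Those 7 are members of a list of immediate early genes, of which 25 are in the table and 23 were tested. Over all genes tested 0.537% were variable. Of the 23, 0 were constant, beside 4.44% of all genes tested. The median distance of the list was 0.13, 0.31, 0.32 and 0.22 in Y4, Y5, Y7 and Y8. The list was not variable throughout: *Fosb* (0.16 ± 0.16), read in 90.3% of cells, *Jund* (−0.25 ± 0.07), in 94.9%, *Cebpb* (0.12 ± 0.22), in 94.7%, and *Myc* (0.03 ± 0.05), in 88.9%, were near or below the trend. Summed over the list, a mouse had 24940 (Y4), 24864 (Y5), 20012 (Y7) and 22201 RPM (Y8), while single cells of Y8 ran from 2393 to 153510 RPM. No cell was free of reads on the list: even in the lowest cell of each mouse the sum was 2393 to 3788 RPM. The sum includes *Jund*, *Cebpb* and *Fosb*, read in most cells, and so does not show that the variable members were read in each cell.

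The other variable genes were of several kinds. The chemokine gene *Cxcl1* had a distance of 0.72 ± 0.10, with reads in 66.7%, 84.1%, 55.4% and 70.7% of the cells of Y4, Y5, Y7 and Y8. *Rgs4*, a brake on G protein signalling, had 0.61 ± 0.23, *Sat1*, the polyamine-degrading acetyltransferase, 0.54 ± 0.11, and *Fgl2*, a fibrinogen-like protein, 0.53 ± 0.20. Matricellular proteins, which bind the matrix and signal from it, were represented by *Cyr61* (0.58 ± 0.13), *Ctgf* (0.51 ± 0.13), *Thbs2* (0.48 ± 0.10) and *Thbs1* (0.43 ± 0.10). *Id3*, an inhibitor of basic helix-loop-helix factors such as Myod1, had 0.42 ± 0.08, and the co-chaperone gene *Dnajb1* 0.51 ± 0.18. *Asb5*, high in most cells, still varied more than genes of its level (0.34 ± 0.10), with reads in 88.7% ± 6.80 of cells.

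**Figure D2:**
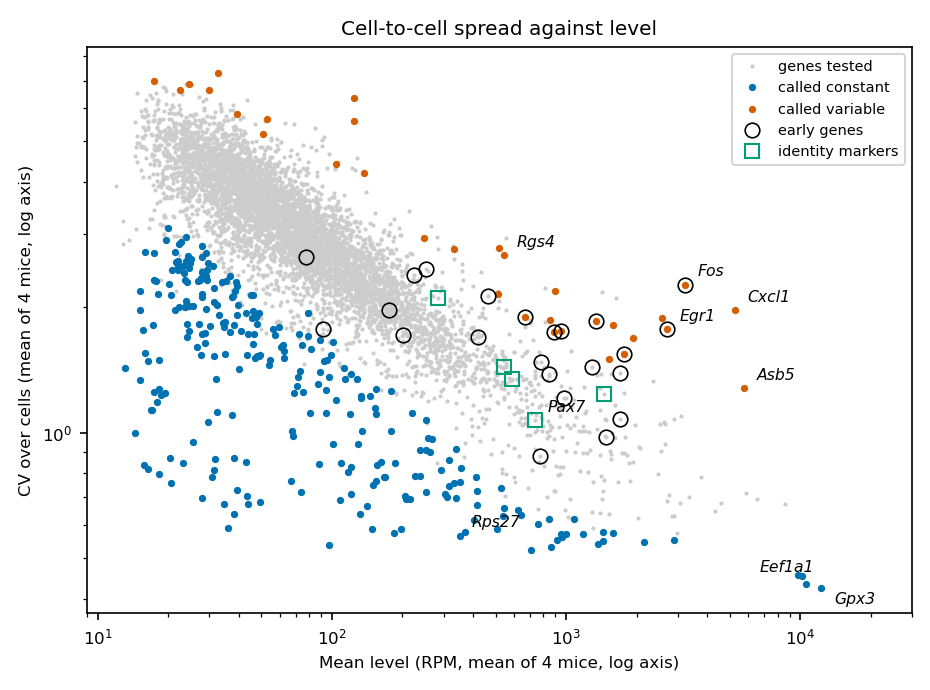
Mean level (RPM) against CV across cells, both as the mean of 4 mice on log axes, for 5963 genes. Variable genes (orange) lie above the trend and constant genes (blue) below it. Of the 23 early genes (open circles) 7 are among the variable ones, beside 0.537% of all genes tested. The 5 identity markers (squares) are called neither way, as are most genes.

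Identity markers were neither constant nor variable, which was the usual outcome: of all genes tested 4.44% were constant and 0.537% variable. Their distances were −0.07 ± 0.06 for *Pax7*, 0.07 ± 0.18 for *Myf5*, 0.07 ± 0.14 for *Cdh15*, 0.20 ± 0.12 for *Calcr* and 0.21 ± 0.12 for *Vcam1*. The mean level of *Pax7* was 1029 RPM (Y4), 579 RPM (Y5), 908 RPM (Y7) and 446 RPM (Y8), and its CV across cells was between 0.974 and 1.23. *Myod1*, the determination factor that marks activation, had a distance of 0.37 ± 0.37 and reads in 48.2% ± 6.07 of cells.

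**Figure D3:**
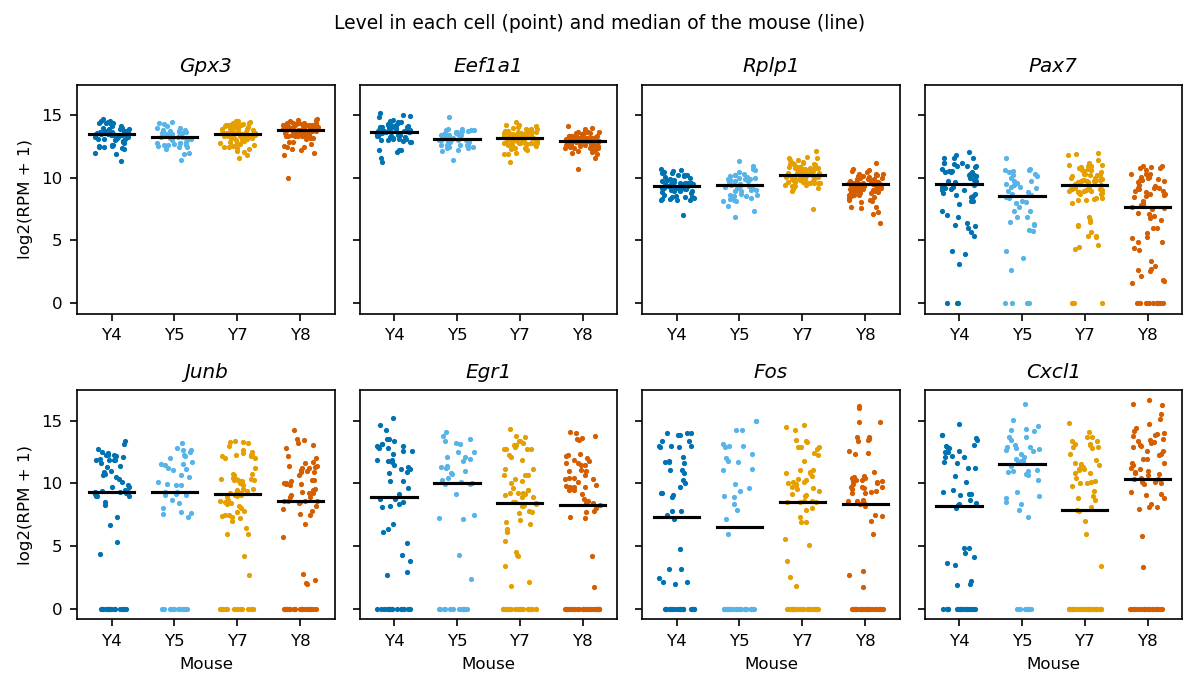
Level of 8 genes as log2(RPM + 1) in each of the 253 cells (points), with the median of each mouse (line). Gpx3, Eef1a1 and Rplp1 form narrow bands with no cell at 0, Pax7 is broader, and Junb, Egr1, Fos and Cxcl1 are split between cells at 0 and cells reaching values above 13.

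Promoters of 6 early genes, all but *Fosb* called variable, were read for 3 motifs and are shown because these genes are also co-expressed, as described further on. They were picked for holding a motif: *Jun*, of the same group, held none of them and is not shown. *Egr1*, also an early gene of that group, is not shown either. It is not among the early genes for which any of these motifs was found, and whether it had a listed promoter is not given here. Each stretch holds the 180 bases before the RefSeq start (GRCm38.p6), and capitals mark a TATA box (TATAAA or TATATA), the cAMP response element TGACGTCA or its shorter form TGACG, which reads CGTCA on the opposite strand, and the CArG box of serum response factor.
Fos (chr12:85473710-85473889, plus strand): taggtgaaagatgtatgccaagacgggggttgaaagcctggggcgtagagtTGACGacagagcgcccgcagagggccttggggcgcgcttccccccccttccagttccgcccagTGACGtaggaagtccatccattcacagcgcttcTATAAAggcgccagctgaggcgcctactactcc
Fosb (chr7:19310046-19310225, minus strand): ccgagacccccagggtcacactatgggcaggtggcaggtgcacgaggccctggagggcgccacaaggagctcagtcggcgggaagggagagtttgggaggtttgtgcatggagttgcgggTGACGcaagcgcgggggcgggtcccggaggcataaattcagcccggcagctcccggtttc
Junb (chr8:84978749-84978928, minus strand): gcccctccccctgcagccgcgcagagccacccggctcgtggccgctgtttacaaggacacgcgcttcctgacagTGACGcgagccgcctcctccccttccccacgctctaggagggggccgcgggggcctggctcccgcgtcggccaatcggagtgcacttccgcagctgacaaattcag
Btg2 (chr1:134079156-134079335, minus strand): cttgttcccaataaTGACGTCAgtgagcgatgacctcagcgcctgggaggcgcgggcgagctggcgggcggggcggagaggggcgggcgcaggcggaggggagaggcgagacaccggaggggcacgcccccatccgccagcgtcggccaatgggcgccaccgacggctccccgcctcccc
Zfp36 (chr7:28379229-28379408, minus strand): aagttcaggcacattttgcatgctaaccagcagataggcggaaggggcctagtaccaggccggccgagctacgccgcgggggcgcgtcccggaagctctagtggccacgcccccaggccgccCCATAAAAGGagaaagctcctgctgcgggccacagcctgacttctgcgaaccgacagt
Nr4a1 (chr15:101266666-101266845, plus strand): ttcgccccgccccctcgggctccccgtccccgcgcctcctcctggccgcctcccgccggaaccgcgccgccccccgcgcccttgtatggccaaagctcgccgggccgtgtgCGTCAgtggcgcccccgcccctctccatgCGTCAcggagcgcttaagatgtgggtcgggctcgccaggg

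Within the 250 bases before the start, TGACG or its reverse complement was found for 12 of 21 early genes with a listed promoter, and for 34.8% of tested genes. The whole element TGACGTCA was found for 3 early genes (*Btg2*, *Dusp1* and *Maff*) and 3.67% of tested genes, and the CArG box for *Egr2* and *Zfp36* and 1.66% of tested genes. These letters are a description and show no binding.

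A TATA box 16 to 45 bases before the start was found for 5 of the 22 variable genes with a listed promoter, for 2.01% of the tested genes and for 3.56% of all genes. Besides *Fos* these were *Asb5*, *Rgs4*, the insulin-like growth factor binding protein gene *Igfbp4* and the sialidase gene *Neu2*. The last 2 were read in few cells, so few cells set their spread. *Neu2* was read in 3.33% to 8% of the cells of a mouse, and *Igfbp4* in 23.3%, 2.27%, 5.41% and 4% of those of Y4, Y5, Y7 and Y8. The counted *Neu2* gene starts at 87509889, far from the RefSeq start used here. The last 60 bases before the start of each gene but *Fos* follow with the TATA box in capitals.
Asb5 (chr8:54550271-54550330, plus strand): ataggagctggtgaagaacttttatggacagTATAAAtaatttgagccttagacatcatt
Rgs4 (chr1:169747643-169747702, minus strand): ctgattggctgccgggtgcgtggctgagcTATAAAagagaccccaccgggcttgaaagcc
Igfbp4 (chr11:99041184-99041243, plus strand): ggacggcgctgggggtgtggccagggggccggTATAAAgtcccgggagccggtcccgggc
Neu2 (chr1:87594490-87594549, plus strand): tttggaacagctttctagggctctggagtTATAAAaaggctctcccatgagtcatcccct

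Co-expression was then followed within each mouse. For the 1329 genes with reads in at least 30% of the cells of each mouse, Spearman's rho was computed across cells with the number of genes detected and the number of reads held fixed, over 44 to 75 cells. The median of 882456 pairs was 0.003. A rho of at least 0.3 in all 4 mice was found for 209 pairs (0.0237%) and one of at most −0.3 for 11 pairs (0.00125%). Of the 209 pairs, 60 were of genes that overlap or lie within 5 kb of each other and 53 shared an exact stretch of 50 bases. Reads of these can be split between both members. Another 43 held a pseudogene or unnamed model with no such overlap or stretch found. Whether their members share reads was not tested. In some of them the model overlaps a different gene, as *BC042782*, paired with *Fos*, overlaps or neighbours *Jun*. The remaining 53 pairs, of distinct genes, are described below. The points of 1 mouse share library preparation and lane, and RPM values of a cell sum to a constant.

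The largest group of linked pairs was made up mostly of early genes. Of the 53 pairs, 25 linked *Fos*, *Fosb*, *Jun*, *Junb*, *Egr1*, *Btg2*, *Zfp36*, *Nr4a1*, *Id3* and *Nfkbiz* with each other, and *Egr1* had 8 partners, *Fosb* 7, *Btg2*, *Fos* and *Junb* 6 each, and *Jun* and *Zfp36* 5 each. *Junb* with *Egr1* gave a rho of 0.69 (Y4), 0.71 (Y5), 0.62 (Y7) and 0.58 (Y8). *Junb* with *Fos* gave 0.61, 0.84, 0.49 and 0.58, and *Fos* with *Egr1* 0.79, 0.80, 0.55 and 0.46. Among the strongest pairs were also *Btg2* with *Egr1*, *Fosb*, *Fos* and *Junb*, *Zfp36* with *Junb*, *Nr4a1* with *Egr1*, and *Jun* with *Egr1* and *Fosb*, with a rho of 0.37 to 0.46 in the weakest mouse of each. *Id3*, the helix-loop-helix inhibitor, and *Nfkbiz*, a nuclear regulator of NF-kB targets, are on no list of early genes used here. *Id3* with *Junb* had a rho of 0.43, 0.56, 0.42 and 0.46. *Fos*, *Egr1* and *Junb* were all read in 45%, 47.7%, 51.4% and 40% of the cells of Y4, Y5, Y7 and Y8, and none of them in 6 of 60, 6 of 44, 4 of 74 and 9 of 75 cells. Over the whole list of early genes, 20 could be paired, and the median rho of their 190 pairs was 0.105 ± 0.021 (SD, n = 4 mice) against 0.003 ± 0.001 over all pairs; 78 of the 190 pairs (41.1%) had a rho above 0 in all 4 mice, against 7.7% of all pairs.

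Ribosomal protein genes formed another group, with 20 of them in 22 pairs, of which *Rps27* was in 6 and *Rplp1* and *Rps23* in 5 each. *Rplp0* with *Rps19* had a rho of 0.51, 0.39, 0.38 and 0.38 in Y4, Y5, Y7 and Y8. *Rps27* with *Rplp1* had a rho of 0.42 (Y4), 0.57 (Y5), 0.37 (Y7) and 0.46 (Y8), and *Rpl32* with *Rplp1* 0.64, 0.45, 0.45 and 0.35. Over all 78 ribosomal protein genes that could be paired, 70.3% of 3003 pairs had a rho above 0 in all 4 mice, against 7.7% of all pairs. The median rho of a mouse was 0.261, 0.228, 0.161 and 0.144, against a mean of 0.003 over all pairs. These pairs were less stable than those of the early genes: with scran size factors 4 of the 24 pairs of ribosomal genes were called against 25 of 25 of the early group, with Pearson's r of log2 values 3 of 24 against 16 of 25, and with cells thinned to 100000 reads 10 of 24 against 22 of 23. The mean log2 level of the ribosomal genes in a cell and that of the early genes had a rho of −0.27, −0.03, −0.10 and −0.10 in the same order of mice.

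Few other pairs of distinct genes were found. The elongation factors *Eef1a1* and *Eef2* had a rho of 0.60, 0.54, 0.37 and 0.33 in Y4, Y5, Y7 and Y8, and the metallothioneins *Mt1* and *Mt2*, which bind zinc and lie close to each other on chromosome 8, 0.53, 0.54, 0.55 and 0.45. *Cxcl1* with *Nfkbia*, the inhibitor of NF-kB that is itself a target of it, had 0.48, 0.41, 0.38 and 0.32. The origin recognition gene *Orc5* with *Rpl22l1* had 0.49, 0.32, 0.49 and 0.53. Of the 53 pairs 9 were tested and called under each of the 7 other settings tried: *Junb* with *Egr1*, *Junb* with *Fos*, *Fos* with *Egr1*, *Fosb* with *Fos*, *Jun* with *Fosb*, *Jun* with *Zfp36*, *Nfkbiz* with *Egr1*, *Rpl31* with *Rpl32* and *Orc5* with *Rpl22l1*. *Btg2* with *Egr1*, *Fos*, *Fosb* and *Junb* could be tested under 6 settings and was called under all 6. *Nr4a1* with *Egr1* was called under all 4 settings where it could be tested. The setting that asks for reads in more cells only drops genes and leaves rho unchanged, so any pair tested there is called.

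**Figure D4:**
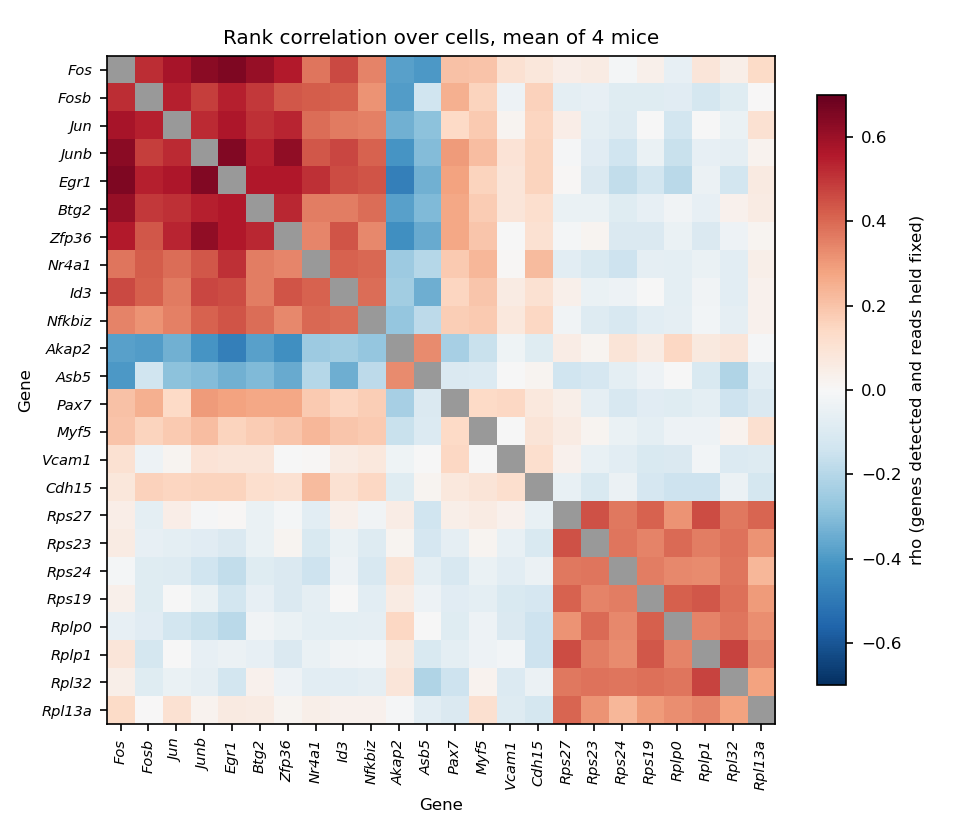
Spearman's rho between 24 genes across cells, as the mean of 4 mice, with genes detected and reads held fixed. The early genes from Fos to Nfkbiz and the ribosomal protein genes from Rps27 to Rpl13a form 2 red blocks, Akap2 and Asb5 are blue against the early block, and the markers from Pax7 to Cdh15 are pale.

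Opposed pairs were fewer, and none of the 6 between distinct genes held under each setting. *Akap2*, which anchors protein kinase A, was opposed to *Btg2*, *Egr1*, *Junb* and *Fosb*. It overlaps the unnamed model *Gm20459*, whose rho with *Akap2* was 0.99 or higher in each mouse and whose pairs with the same 4 genes were called too, so these reads cannot be assigned to either of them with certainty. The rho of *Akap2* with *Egr1* was −0.54 (Y4), −0.64 (Y5), −0.41 (Y7) and −0.33 (Y8). *Asb5* with *Fos* had −0.38, −0.53, −0.31 and −0.39, and *Cnn3*, a calponin, with *Malat1* −0.41, −0.34, −0.31 and −0.35. With scran size factors 1 of the 6 was called, *Btg2* with *Akap2*, and with Pearson's r of log2 values 0.

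*Pax7*, *Myf5*, *Vcam1* and *Cdh15* had no called partner, and *Calcr* was read in too few cells of Y8 to be paired. The partner that came nearest for *Pax7* was *Junb*, with a rho of 0.35, 0.26, 0.35 and 0.25 in Y4, Y5, Y7 and Y8. Of the 20 early genes that could be paired, 11 had a rho with *Pax7* above 0 in all 4 mice, beside 7.7% of all pairs, and 1, *Cebpb*, below 0 in all 4. For *Myf5* the nearest was *Nr4a1* (0.21, 0.26, 0.20 and 0.27), and 9 of 20 early genes were above 0 in all 4 mice. *Vcam1* had 2 such genes, and *Cdh15* 5, with 3 more below 0 in all 4 mice. *Pax7* and *Myf5* themselves had a rho of 0.20, 0.38, 0.02 and −0.05. Values of this size in sparse counts are below the limit used for a call and are given as a description.

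Other genes known from the muscle stem cell are given by list, beside the 4.44% of all tested genes that were constant and the 0.537% that were variable. Of 14 tested transcription factors of the lineage 1, *Id3*, was variable and 0 were constant. *Tcf4* was read in 72.6% of cells and *Pax3* in 5.12%. Of 13 tested receptors and surface proteins 0 were called in either direction. Here *Sdc4* was read in 99.7% of cells, the fibroblast growth factor receptor genes *Fgfr1* and *Fgfr4* in 93.8% and 67.3%, the dystroglycan gene *Dag1* in 95.6%, the integrin genes *Itgb1* and *Itga7* in 77.5% and 57.1%, and *Met*, the receptor of hepatocyte growth factor, in 27.2%.

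Notch signalling is known to keep these cells quiescent. As means of the 4 mice, *Notch3* was read in 74.6% of cells, *Notch2* in 65.4% and *Notch1* in 41%, and the target *Heyl* in 47.4%, while the ligands *Dll1* and *Dll4* were read in 1.89% and 0.333% and *Jag1* in 31.5%. Of 11 tested genes of the list 0 were constant or variable, and the median rho of its 6 pairs was 0.17 in Y4 and −0.03, −0.09 and −0.04 in Y5, Y7 and Y8. *Heyl* was at 385 RPM (Y4), 478 RPM (Y5), 279 RPM (Y7) and 154 RPM (Y8).

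Of 15 tested genes linked to quiescence 1, *Btg2*, was variable, beside 0.537% of all genes tested. *Btg1* was read in 99% of cells, the growth arrest gene *Gas1* in 73.3%, the receptor tyrosine kinase inhibitor *Spry1* in 39.5%, and the cell cycle inhibitors *Cdkn1a*, *Cdkn1b* and *Cdkn1c* in 57.3%, 19.8% and 7.75%. Beside the same share, 3 of 24 tested genes of the extracellular matrix were variable (*Cyr61*, *Ctgf* and *Thbs1*). *Sparc*, at 2472 ± 793 RPM, *Thbs1*, at 1588 ± 1238 RPM, and *Col3a1*, a fibrillar collagen, at 1399 ± 80.9 RPM, were the matrix genes with most reads. *Col3a1* was even between mice, with 1509, 1396, 1372 and 1317 RPM in Y4, Y5, Y7 and Y8.

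Of 11 tested circadian clock genes 0 were called, of 23 proteasome genes 1 was constant, of 20 RNA-binding genes 0 were called, and of 18 cytoskeleton genes 1, *Tmsb10*, was constant, beside 4.44% of all genes tested. Of 14 tested interferon and NF-kB targets 1, *Cxcl1*, was variable, beside 0.537% of all genes tested. The median rho of the 15 pairs of this list was 0.111, 0.215, 0.163 and 0.187 in the 4 mice. Of its 15 pairs 8 were above 0 in all 4 mice, beside 7.7% of all pairs. Of 9 tested targets of glucocorticoids and metals 0 were called.

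Between mice, the median gene of at least 50 RPM had an SD of 0.53 on the scale of log2(RPM + 1). Heat shock genes were a group with wide gaps. *Hspa1a*, an inducible heat shock protein, was at 2194 RPM (Y4), 3875 RPM (Y5), 313 RPM (Y7) and 131 RPM (Y8), and *Hsph1* at 1353, 1645, 124 and 128 RPM. *Dnajb1* was at 4201, 4822, 418 and 820 RPM, and *Hspb1* at 2252, 2825, 403 and 229 RPM. Y4 and Y5 were thus high and Y7 and Y8 low for each of these 4 genes. Y8 was sequenced on lane 3 with Y4 and Y5, and Y7 on lane 2; the part of lane or handling was not tested. Constitutive members differed less: *Hspa8* was at 5361, 5565, 3235 and 4259 RPM. Summed over 16 genes, the list took 31094, 39757, 15438 and 15323 RPM. The median rho of its pairs was 0.26 for Y4, 0.08 for Y5, 0.06 for Y7 and −0.001 for Y8.

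**Figure D5:**
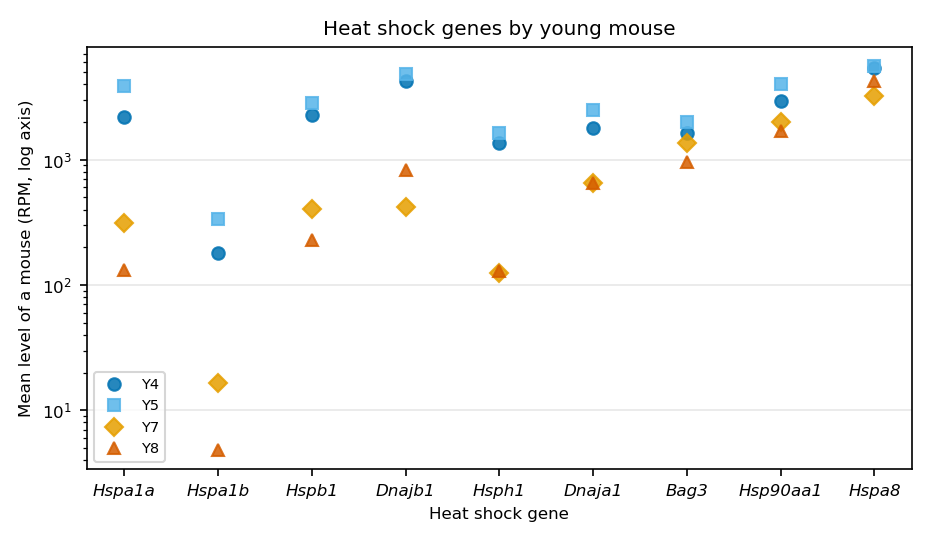
Mean level (RPM, log axis) of 9 heat shock genes in each young mouse. Y4 and Y5 lie above Y7 and Y8 for all 9 genes shown, from Hspa1b, with 180 and 334 against 16.5 and 4.83 RPM, to Hspa8. The other genes of the list of 16 are not shown.

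The targets of glucocorticoids and metals differed in another order, with sums of 3135 RPM (Y4), 5792 RPM (Y5), 9801 RPM (Y7) and 8749 RPM (Y8), in which *Mt2* alone ran from 563 RPM in Y4 to 2931 in Y7. The 10 genes with the widest spread were *Cxcl5*, *Chac1*, *Tap1*, *Nnmt*, *Il15ra*, *Fam63b*, *Usp15*, *Mmp19*, *Csf2rb2* and *Pex7*, with an SD of 2.83 to 3.64 on the log2 scale. They were read in at most 33.3% of the cells of a mouse, and for *Nnmt* 1 cell of Y7 held 96.4% of the summed level of that mouse. *Tap1*, a peptide transporter for antigen presentation, was at 0.580 RPM (Y4), 35.8 RPM (Y5), 177 RPM (Y7) and 269 RPM (Y8) and was read in 3.33%, 9.09%, 25.7% and 33.3% of their cells.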

How the data were processed

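The authors aligned the reads to GRCm38 with HiSat2, counted them per gene in SeqMonk, and deposited raw counts for cells with at least 1000 genes and 100000 reads; which annotation was used, and whether strand was, is not given in the sources used here, and the table holds no mitochondrial genes. Doublets were not searched for, since 1 cell was sorted per well. No 2 columns were identical, and 0 columns were left unmapped. The members and gene lists were chosen with earlier results of these data known. The methylation data and the cells of all other mice were not used here.

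Counts were scaled to RPM per cell, and to TPM after division by length. TPM used exon lengths from GENCODE M21, found for 22628 of 25952 genes; 5.51% of reads lay on genes with no length. Distances followed a rolling median over 100 genes. Each mouse gave 1 value, as mean and SD over 4 mice. No groups were compared, and the only test was Dixon's for a mouse far from the others. Wells came from single animals, and lane is confounded with mouse for Y7. By rule the text names up to 4 members of each list, the 20 highest TPM, the 10 lowest and 15 highest distances among called genes, the 15 strongest and 5 most opposed pairs, the 10 genes with most partners, the 10 highest genes read in some cells only, and the 10 widest between mice; other genes, such as named constant coding genes and further list members, were chosen after their values were seen. Promoters came from RefSeq (GRCm38.p6).

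On simulated cells with the mean levels and depth of these (5963 genes), 45.5% of 200 genes with a 4 times higher squared CV were called variable. Of 200 with a 4 times lower one, 96% were called constant. Among 5563 unchanged genes 0 were called. These were drawn at the trend and independently in each mouse, so a call was improbable from the outset. All 82 of 82 planted pairs were found, but they were planted with a strong correlation, so recovery of weaker pairs was not tested. The simulated counts were less sparse than the data, with 4119803 other pairs to test against 882456. Alternatives were thinning to 100000 reads, 44 cells per mouse, other minimum levels, a rolling mean, scran size factors, no covariate, Pearson's r and each mouse left out; counts per mouse were also scaled by edgeR's TMM. Python 3.11.15, R 4.3.3, scran 1.30.0 and edgeR 4.0.16 were used.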

Additional observations from a re-analysis of the deposited data

Results flagged for a closer look

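Of 88 values with 1 figure per mouse, 4 had a mouse far from the other 3, where the gap to the nearest mouse divided by the whole range exceeded Dixon's 95% limit for 4 samples. Chance alone flags about 1 in 20. The level of *Rplp1* was 9278 TPM in Y7 against 4960 to 5252 TPM in the others (gap over range 0.932). *Rplp0* was at 9245 TPM in Y4 against 2713 to 3344 TPM (0.903), and *Rpl4* at 7064 TPM in Y4 against 4106 to 4493 TPM (0.869). The summed level of the Notch list was 1271 RPM in Y8 against 2362 to 2492 RPM in the others (0.893). No cause was tested.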

How the results depend on the processing

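The value or count of most results moved little under the alternatives: of 126 values of the main results, 108 stayed within 1.5 times the count or within 1 SD of the value reported. In this tally co-expressed pairs were counted all together, with the 156 set apart for overlap, shared stretches, pseudogenes or unnamed models. The tally therefore does not show how stable the 53 pairs of distinct genes were. The exceptions follow, and their cause was not tested except where the setting itself changes what can be called. With a minimum of 50 RPM, which leaves 2399 genes, 111 genes were constant, and 1488 genes were read in 20% to 80% of cells. Ranked by RPM with no length, 13 of the 20 highest genes were shared. Thinned to 100000 reads, *Myf5* was read in 74.4% of cells. With reads required in 50% of cells, 133 pairs were co-expressed and the median rho of the early genes was 0.0823. Of the 53 pairs of distinct genes, 9 were tested and called under each of the 7 other settings tried. Pairs that could not be tested under all of them, such as *Btg2* with *Egr1*, are left out of the 9 even where each test called them. Of the 24 pairs of ribosomal genes, 4 were called with scran size factors and 3 with Pearson's r. Opposed pairs numbered 2 with scran size factors, 1 with Pearson's r and 7 in cells with reads on at least 2 identity markers, the last chosen after seeing the data. Leaving out a mouse lets more features pass, since they must pass in 3 mice: 50 (without Y7) to 69 (without Y8) genes were variable, with 66 without Y4 and 58 without Y5, 251 to 358 pairs were co-expressed (356 without Y7, 358 without Y8) and 12 to 29 opposed (17 without Y4, 24 without Y7, 29 without Y8). Of the 15 variable genes with the largest distances, 10 were called under each of 12 alternatives, and *Rgs4* under 8. No paired analysis was possible because the results come from 1 group of mice and from no test between groups. Depth limits what can be said of genes read in few cells, and the 4 mice set the precision.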
